A study of Mus musculus with 36 samples.

Results

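Cassette exons, which are kept in some transcripts of a gene and skipped in others, were read from spliced-read counts of annotated introns in mouse blood progenitors, cultured marrow cells and embryonic fibroblasts. An exon was a member where 3 listed introns on one strand fitted together: a long intron that shares its 5′ end with an upstream intron and its 3′ end with a downstream intron, with a gap of at most 300 bases between the inner introns. The gap is the cassette exon. Among 219945 introns listed in every library, 4921 such exons lay in 3559 genes. An exon that fits several long introns was counted once for each, so counts of exons are counts of such readings. The skipping share of an exon was taken as 2 times the reads spliced over the long intron, divided by the reads counted at the upstream and downstream introns together, and is given in percent; a difference between shares is given in percentage points. A read spliced over the long intron was counted at all 3 introns, so the share runs between 0% (always included) and 100% (always skipped).

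The libraries came from C57BL/6 mice and cells deficient for Zrsr2 (KO) or wild type (WT). Common myeloid progenitors (CMP), granulocyte-macrophage progenitors (GMP) and megakaryocyte-erythroid progenitors (MEP) were sorted from 3 KO and 3 WT mice, giving 18 libraries in which 1 mouse supplied 1 library of each type. Mouse embryonic fibroblasts (MEF) gave 3 KO and 3 WT libraries. Lineage-negative, Kit-positive marrow cells (Lin-Kit+) gave 12 libraries: KO and WT cells, each with 1 of 2 short hairpins against Zrsr1 (sh1 or sh10) or a control hairpin, in each of 2 experiments. Neither the age of the mice nor the way in which Zrsr2 was deleted is stated in the labels. All libraries were made from poly(A) RNA. Reads counted over introns summed to between 44083233 and 84832431 per progenitor library, between 43514139 and 61124920 per MEF library and between 30481450 and 43345548 per Lin-Kit+ library, and 0 of 630 library pairs held identical counts over the cassette exons.

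ZRSR2 is a subunit of the minor spliceosome that reads the acceptor site of U12-type introns, a rare class that sits as a single intron in an otherwise ordinary gene, and ZRSR1 is its close relative. Cassette exons are the commonest form of regulated splicing in mammals. An exon whose length is a multiple of 3 adds or removes a protein segment and keeps the reading frame, while other coding exons shift the frame. Whether loss of Zrsr2 or a hairpin against Zrsr1 moves these choices, and how they differ between cell types, were the comparisons made.

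Reads spliced over introns of Zrsr2 numbered 0 to 57 in the 18 KO libraries (0 to 1.52 CPM, counts scaled to the spliced total of the library), against 725 to 2147 (19.2 to 34.2 CPM) in the 18 WT libraries. The annotation gives Zrsr1 no intron, so the hairpins' effect on it was not read from these counts. Mpo, a granule enzyme of GMP, averaged 20110 CPM in WT GMP, 25.6 CPM in WT MEP and 2658 CPM in WT CMP, and Gata1, the erythroid factor, averaged 194 CPM in WT MEP, 3.44 CPM in WT GMP and 71.8 CPM in WT CMP. Kit, the receptor that Lin-Kit+ cells are sorted on, stood at 133 to 469 CPM in their libraries. The fibroblast collagen Col1a1 reached 22157 to 26381 CPM in WT MEF and stayed at or under 18.1 CPM in WT progenitors. MEF libraries also held macrophage markers: Adgre1, Cd68, Mrc1 and C1qa summed to 173 to 1300 CPM in KO MEF and 157 to 1625 CPM in WT MEF, against 18.3 to 24.1 CPM in WT CMP, 29.9 to 39.7 CPM in WT GMP and 2.07 to 2.70 CPM in WT MEP. A share is an average over the cells of a library, so a changed choice within cells and a changed mix of cells cannot be told apart. Cell type and handling (sorted from marrow or grown in culture) cannot be told apart for MEF either.

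The exons printed here were picked from the named ones to show where the cell types differ. All 13 are coding, none holds a stop codon in its reading frame, and the capitals mark the last 3 bases of the exon, which touch the downstream 5′ splice site. They were taken from GENCODE M21 transcripts on mm10. The exons of Golim4 (84 bases, chr3:75902401-75902484, minus strand), Cttn (111 bases, chr7:144450978-144451088, minus strand), Abi1 (87 bases, chr2:22950184-22950270, minus strand), Nfya (87 bases, chr17:48398982-48399068, minus strand) and Mark3 (45 bases, chr12:111653390-111653434, plus strand) were kept in MEF and largely skipped in progenitors.
Golim4: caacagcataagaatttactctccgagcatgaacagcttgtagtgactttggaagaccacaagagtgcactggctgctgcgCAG
Cttn: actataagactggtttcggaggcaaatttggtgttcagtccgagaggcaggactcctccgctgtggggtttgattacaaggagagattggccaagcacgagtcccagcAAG
Abi1: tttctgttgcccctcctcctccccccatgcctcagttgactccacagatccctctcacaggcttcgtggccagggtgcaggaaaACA
Nfya: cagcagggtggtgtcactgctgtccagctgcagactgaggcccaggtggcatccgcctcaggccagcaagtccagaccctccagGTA
Mark3: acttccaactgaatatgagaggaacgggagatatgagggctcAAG

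The exons of Pbrm1 (156 bases, chr14:31113849-31114004, plus strand), Add3 (96 bases, chr19:53244310-53244405, plus strand) and Map3k7 (81 bases, chr4:31994874-31994954, plus strand) were skipped more in MEF.
Pbrm1: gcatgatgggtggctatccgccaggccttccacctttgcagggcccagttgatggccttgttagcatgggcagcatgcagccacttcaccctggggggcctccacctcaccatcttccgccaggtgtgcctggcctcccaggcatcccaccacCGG
Add3: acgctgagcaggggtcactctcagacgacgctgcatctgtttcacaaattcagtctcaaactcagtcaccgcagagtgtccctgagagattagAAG
Map3k7: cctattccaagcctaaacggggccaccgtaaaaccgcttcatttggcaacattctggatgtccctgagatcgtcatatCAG

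The remaining exons separated the progenitor types. Arhgef1 has 2 of them, of 12 bases (chr7:24918520-24918531, plus strand) and 168 bases (chr7:24919184-24919351, plus strand), and both are read from long introns that start at the same 5′ splice site. The others lie in Erbin (144 bases, chr13:103830188-103830331, minus strand), Exoc1 (45 bases, chr5:76557819-76557863, plus strand) and Mtmr4 (171 bases, chr11:87604682-87604852, plus strand).
Arhgef1, 12-base exon: aaggtggaaGAG
Arhgef1, 168-base exon: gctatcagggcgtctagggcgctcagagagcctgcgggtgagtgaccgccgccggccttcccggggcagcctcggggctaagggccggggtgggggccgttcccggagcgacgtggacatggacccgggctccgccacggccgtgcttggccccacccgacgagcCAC
Erbin: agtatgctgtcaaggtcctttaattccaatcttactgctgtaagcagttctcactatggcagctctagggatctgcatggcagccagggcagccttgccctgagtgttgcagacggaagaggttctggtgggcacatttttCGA
Exoc1: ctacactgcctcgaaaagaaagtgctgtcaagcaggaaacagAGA
Mtmr4: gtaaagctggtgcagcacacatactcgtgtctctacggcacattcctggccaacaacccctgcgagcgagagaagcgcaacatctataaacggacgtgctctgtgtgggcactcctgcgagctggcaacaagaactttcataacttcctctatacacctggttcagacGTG

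Of the printed sequences, 8 end in G and 6 of those in AG, the bases that most exons carry before a 5′ splice site. The exons of Abi1, Nfya, Arhgef1 (168 bases), Erbin and Exoc1 end in another base. Over the 4856 cassette exons with an annotated sequence, 78.5% ended in G and 54.9% in AG.

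The 4921 exons had a median length of 96 bases and ran from 3 to 300 bases, and 336 of them (6.83%) were 27 bases or shorter, the range of microexons. In 3481 exons every base was coding, and of those 2826 (81.2%) had a length that is a multiple of 3. A further 382 were partly coding, 993 lay in untranslated or noncoding sequence, and 65 had no single annotated exon filling the gap. In 381 exons a stop codon stood in the frame of the form that skips the exon. Exons without a sequence, or without an annotated coding transcript that skips them, could not be read for this and are not among the 381. Long introns were shared by 274 exons, and 924 had other listed introns inside the long intron, so their share can include reads spliced elsewhere.

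A share was used where the upstream and downstream introns together held 40 or more reads, which 2216 exons reached in every progenitor library, 2886 in every MEF library and 2121 in every Lin-Kit+ library. With the further demand of 20 skipping and 20 inclusion reads summed over the libraries of a fit, 2745 exons in 2041 genes were tested in at least 1 fit, and an exon could pass that demand through the one group that skipped it. Over the 1805 exons readable in all 36 libraries, the median skipping share was 41.3% to 44.8% by library. Exons skipped in under 5% of transcripts made up 21.7% to 27.5% of them, and those skipped in over 50% made up 45.6% to 48.0%.

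**Figure D1:**
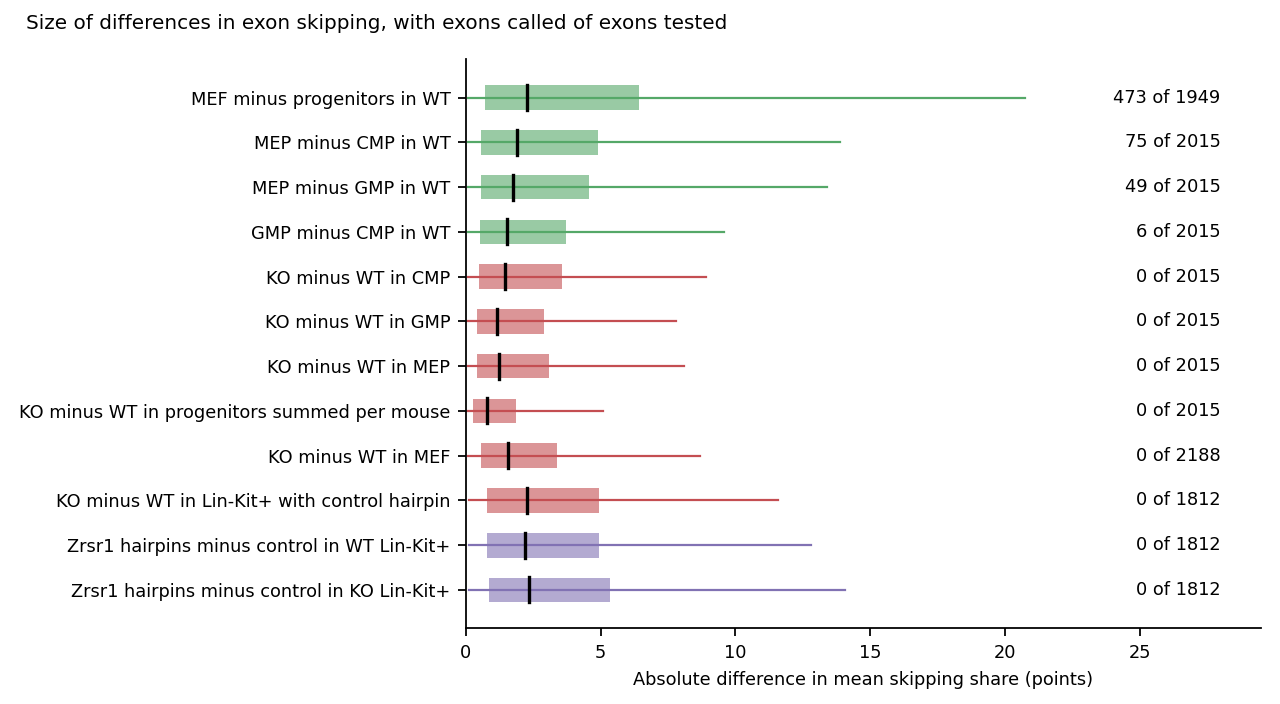
Absolute differences in skipping share between group means, in percentage points, for every exon tested in each comparison (box, quartiles; line, median; whiskers, 5th to 95th percentile). The MEF against progenitor comparison has the longest upper whisker, at 20.7 points, and the KO against WT comparison of mouse sums the shortest, at 5.08 points.

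WT fibroblasts and WT progenitors chose cassette exons differently in 403 genes. In the comparison of WT MEF with WT progenitors (counts of the 3 progenitor types added per mouse, 3 libraries against 3 mice), skipping differed for 473 of 1949 exons, or 24.3%, in edgeR's quasi-likelihood test at a Benjamini-Hochberg adjusted p under 0.05. It was higher in MEF for 211 (10.8%) and lower in MEF for 262 (13.4%). The difference was 10 points or more in 250 of the called exons (12.8% of those tested) and 20 points or more in 103. Shares of the MEF and progenitor groups did not overlap for 39.3% of all exons tested. KO libraries had no part in the WT shares. They did enter the count filter and the estimate of spread behind the calls, so they are not an independent check. In them, KO MEF differed from KO progenitors in the same direction for 463 of the 473 exons and without overlap for 398, against 76.7% and 41.5% of all exons tested.

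**Figure D2:**
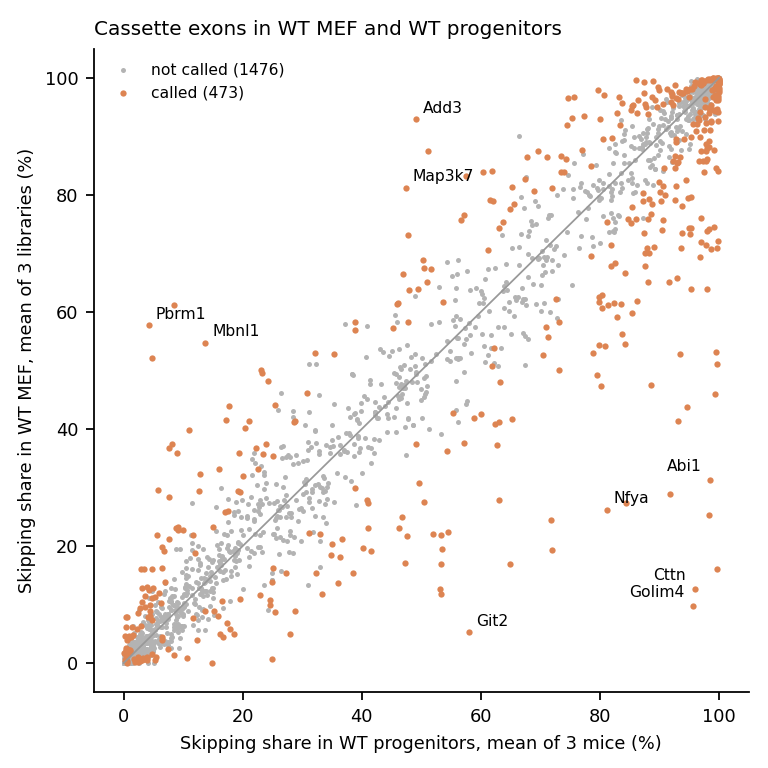
Skipping share in WT MEF (vertical axis, percent) against WT progenitors summed per mouse (horizontal axis, percent), each point the mean of 3 libraries or mice for 1 of 1949 exons, with the 473 called exons in orange. Golim4 and Cttn lie in the lower right corner, under 15% in MEF and over 95% in progenitors, and Pbrm1 lies in the upper left. The Mbnl1 point is read from the long intron that skips both its 36-base exon and the 95-base exon next to it.

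The widest gap was in Golim4, a membrane protein of the Golgi. Its 84-base exon was skipped in 10.2%, 10.3% and 8.9% of transcripts in WT MEF, against 95.2%, 95.2% and 96.6% in WT mice. Fibroblasts kept this exon in nearly all transcripts and progenitors left it out in nearly all, a gap of 85.9 ± 0.65 points (SE, n = 3 each; edgeR adjusted p = 4.52e-10). Cttn encodes cortactin, which binds and branches actin filaments, and its 111-base exon encodes one of the tandem actin-binding repeats. It was skipped in 10.8%, 13.9% and 13.6% of transcripts in WT MEF, against 97.3%, 97.8% and 92.6% in WT mice (edgeR adjusted p = 1.07e-07). Every progenitor library of either genotype stood above every MEF library for both exons.

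The 262 exons with lower skipping in MEF included exons of Tsc2, Bptf, Nfya and Mark3. Tsc2, the tuberin subunit of the complex that restrains mTORC1, had a 129-base exon skipped in 15.0%, 25.7% and 35.2% of transcripts in WT MEF, against 99.6%, 97.7% and 97.9% in WT mice (edgeR adjusted p = 2.05e-06). For the 189-base exon of Bptf, the largest subunit of the NURF chromatin remodeller, skipping averaged 28.8% ± 6.9 in WT MEF and 91.7% ± 1.4 in WT mice (SD, n = 3 each; edgeR adjusted p = 1.54e-06). Both exons are multiples of 3, so either form keeps the frame. Nfya is the DNA-contacting regulatory subunit of the CCAAT-binding factor NF-Y, and its 87-base exon lies in the glutamine-rich activation region. Its skipping share was 16.1%, 31.1% and 31.4% in WT MEF, against 80.6%, 79.0% and 83.8% in WT mice (edgeR adjusted p = 2.77e-06). Mark3, a kinase of microtubule-associated proteins, had its 45-base exon skipped in 24.5% ± 4.4 of transcripts in WT MEF and 71.9% ± 1.4 in WT mice (SD, n = 3 each; edgeR adjusted p = 5.3e-07). In both genes each WT MEF library was below each WT mouse. The Mark3 exon has 2 other listed introns inside its long intron.

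Among the regulators of actin and cell shape, Abi1, a subunit of the WAVE complex that starts actin branching, skipped its 87-base exon in 19.2%, 33.3% and 41.5% of transcripts in WT MEF, against 99.0%, 98.8% and 97.8% in WT mice (edgeR adjusted p = 4.55e-07). Another long intron read the same exon at 17.0% ± 10.1 in WT MEF and 64.9% ± 2.0 in WT mice (SD, n = 3 each). The edgeR adjusted p there was 0.000303. That intron also skips the 177-base exon next to it, and reads that skip the 87-base exon alone count there as inclusion. The 4 readings of Abi1 called here share junctions, so they are not separate evidence. Git2, a GTPase-activating protein for Arf that scaffolds focal adhesions, skipped its 90-base exon in 2.8%, 4.9% and 8.0% in WT MEF, against 62.1%, 53.9% and 58.1% in WT mice (edgeR adjusted p = 5.3e-07). The 48-base exon of Myo9b, an actin-based motor protein, was skipped in 47.5%, 50.8% and 61.4% in WT MEF, against 99.6%, 99.4% and 99.5% in WT mice (edgeR adjusted p = 1.31e-08). All 3 were kept more often in fibroblasts. By skipping share, the 3 WT MEF libraries had the same order for these exons and those of Tsc2, Nfya and Mark3 as for the macrophage marker Adgre1. The Add3 and Map3k7 exons given below, which are skipped more in MEF, had that order too. Adgre1 stood at 61.9, 288 and 761 CPM in the same libraries, and the likeness was seen after the values were known. The WT MEF library with the lowest Adgre1 was the farthest from the progenitors for the described exons of Abi1, Git2, Myo9b, Tsc2, Nfya, Mark3, Cttn and Chd3. It was the nearest for those of Add3, Map3k7 and Bptf, and between the others for those of Golim4, Pbrm1 and Add1. Over the 473 called exons it was the farthest for 205 (43.3%), between the others for 137 and the nearest for 131, against 41.7% farthest over all exons tested. Distance from the progenitors fell with rising Adgre1 for 24.1% of the called exons in WT MEF, against 19.3% of all exons tested. With KO MEF and KO progenitors these values were 24.9% and 19.4%. In KO MEF the library with the lowest Adgre1 was the farthest for Abi1, Myo9b, Nfya, Mark3, Chd3, Bptf and Pbrm1. It was between the others for Tsc2, Cttn, Golim4, Add3 and Map3k7, and the nearest for Git2 and Add1. All exons tested include the called ones and come from the same libraries, so they are not a reference free of macrophages. The part of macrophages in these shares was not tested.

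**Figure D3:**
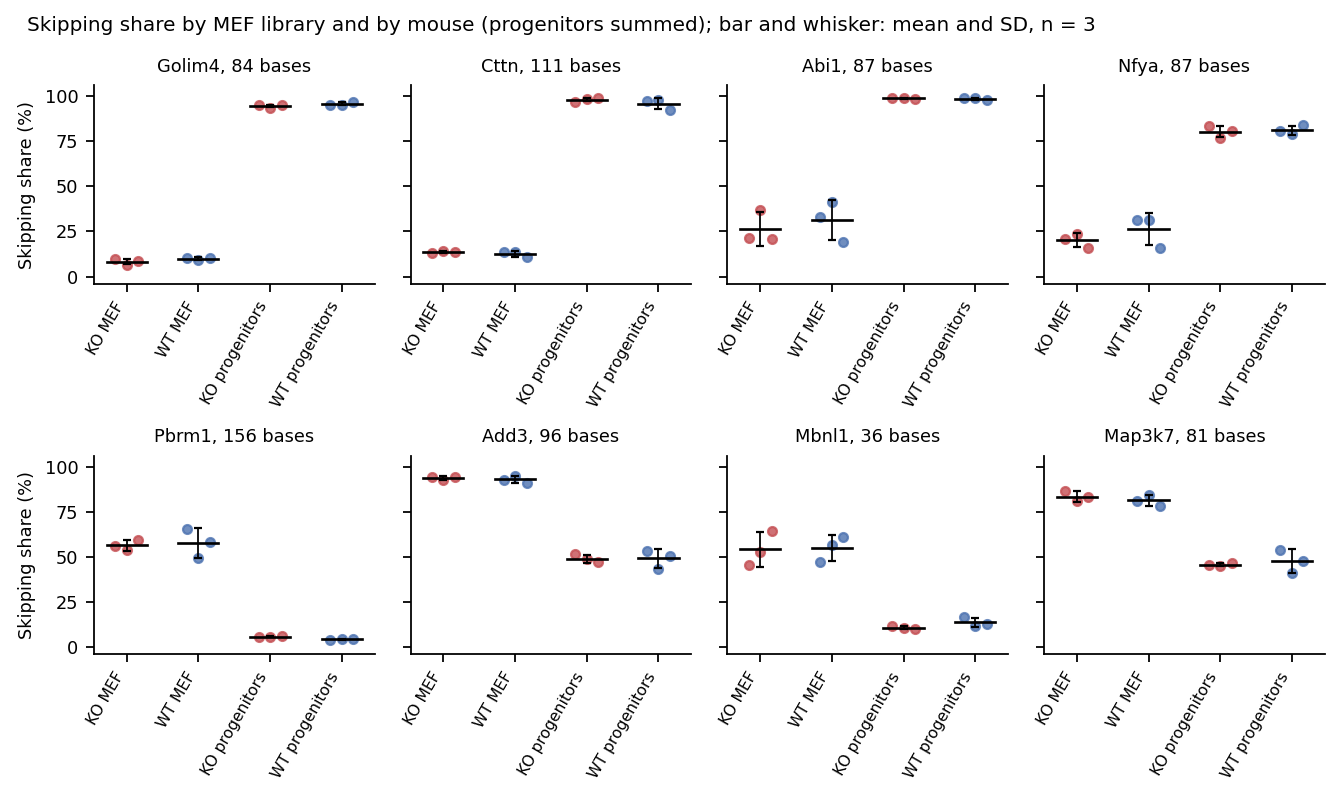
Skipping share (percent) of exons named in the comparison of MEF with progenitors, 1 point per library or mouse sum, with MEF left of progenitors and KO (red) left of WT (blue); bars and whiskers are means and SD (n = 3). KO and WT points lie close together within MEF and within progenitors, while the cell types stand apart. The Mbnl1 panel is read from the long intron that skips both the 36-base exon and the 95-base exon next to it.

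The 211 exons with higher skipping in MEF included exons of Pbrm1, Chd3, Add1, Add3 and Map3k7. The 156-base exon of Pbrm1, the polybromo subunit of the PBAF chromatin remodeller, was skipped in 58.0%, 65.6% and 49.4% of transcripts in WT MEF, against 4.1%, 4.3% and 4.5% in WT mice (edgeR adjusted p = 5.34e-08). Chd3, an ATPase of the NuRD complex, averaged 39.8% ± 6.6 in WT MEF and 11.0% ± 3.4 in WT mice for a 102-base exon (SD, n = 3 each; edgeR adjusted p = 4.92e-05). Add1 and Add3 encode adducins, which cap actin filaments in the spectrin skeleton under the membrane. The 96-base exon of Add3 was skipped in 91.1%, 92.8% and 94.9% of transcripts in WT MEF, against 53.4%, 43.4% and 50.6% in WT mice (edgeR adjusted p = 5.03e-07). The 37-base exon of Add1, partly coding and not a multiple of 3, was skipped in 99.5% ± 0.1 in WT MEF and 86.1% ± 0.3 in WT mice (SD, n = 3 each; edgeR adjusted p = 2.55e-09). The mouse sums mix MEP, GMP and CMP, whose own shares of this Add1 exon differ and are given below. Map3k7, the kinase TAK1 that relays TGF-beta and inflammatory signals, skipped its 81-base exon in 78.3%, 81.0% and 84.4% in WT MEF, against 53.9%, 40.8% and 47.7% in WT mice (edgeR adjusted p = 2.46e-05).

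Splicing regulators regulate their own exons in many mammalian genes. Of 35 exons tested in 23 genes of RNA-binding and splicing factors, 12 (34.3%) in 7 genes were called in the comparison of MEF with progenitors, against 24.3% of all exons tested. Of the 12, 9 were higher in MEF and 3 lower. Of the 9, 4 are readings of the 36-base and 95-base Mbnl1 exons, each read from 2 long introns with shared junctions. By gene, 5 had an exon that was higher and 3 one that was lower, Hnrnpa1 among both. The median difference over the 35 was 0.43 points, against 0.01 points over all exons tested. In Mbnl1, the muscleblind regulator, the 36-base exon was read from 2 long introns. One of them also skips the 95-base exon next to it, so reads that skip the 36-base exon alone count there as inclusion. From that intron the share was 60.7%, 46.9% and 56.5% in WT MEF, against 16.6%, 11.8% and 12.9% in WT mice (edgeR adjusted p = 9.42e-06). Read from the other long intron, which ends at the 95-base exon, the share of the 36-base exon was 83.8% ± 3.1 in WT MEF and 60.4% ± 0.4 in WT mice (SD, n = 3 each; edgeR adjusted p = 2.46e-05). The 95-base Mbnl1 exon next to it shares these junctions, and 1 read that skips both exons counts for each. A 159-base exon of Hnrnpa1, a heterogeneous nuclear ribonucleoprotein, moved less and the other way, with 89.6% ± 0.8 in WT MEF and 94.1% ± 0.3 in WT mice (SD, n = 3 each; edgeR adjusted p = 0.000196).

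Genes of the cytoskeleton, adhesion and membrane traffic had 38 of 69 exons called (55.1%), in 23 of 33 genes, with 16 higher and 22 lower in MEF. Cell death and kinase signalling genes had 14 of 32 called (43.8%), in 8 of 14 genes, with 5 higher and 9 lower. Blood cell genes had 3 of 22 called (13.6%). The share called over all exons was 24.3%. The median difference was -0.31 points over the cytoskeleton list, -0.15 points over the kinase list and 0.10 points over the blood cell list, against 0.01 points over all exons. The called exons of blood cell genes lay in Bcor, Etv6 and Ptprc. Ptprc encodes CD45, whose isoforms mark stages of leukocytes, and its 72-base exon was skipped in 50.0%, 35.7% and 38.4% of transcripts in WT MEF, against 21.1% ± 1.6 in WT mice (SD, n = 3; edgeR adjusted p = 0.00169), with 4 other listed introns inside the long one. Ptprc reads in the WT MEF libraries stood at 22.7, 90.4 and 150 CPM in the same order of libraries as those shares, beside the macrophage sum of 157 to 1625 CPM given above; the part of macrophages in this exon's share was not tested.

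Within the sorted progenitors, MEP stood apart from both myeloid types. Skipping differed between WT MEP and WT CMP for 75 of 2015 exons (3.72%), 48 higher (2.38%) and 27 lower (1.34%) in MEP, in 67 genes. Between WT MEP and WT GMP it differed for 49 exons (2.43%), 23 higher (1.14%) and 26 lower (1.29%) in MEP, in 46 genes. Between WT GMP and WT CMP it differed for 6 (0.298%), 5 higher (0.248%) and 1 lower (0.0496%) in GMP. Of all exons tested, 20.3% did not overlap between MEP and CMP, 20% between MEP and GMP and 12.4% between GMP and CMP. The comparisons share libraries, so their counts are not independent. The KO libraries had no part in the WT shares but entered the count filter and the estimate of spread, so they are not an independent check. In them the direction was the same for 75 of 75 exons called between MEP and CMP (64.9% of all tested), 48 of 49 between MEP and GMP (65.3% of all tested) and 6 of 6 between GMP and CMP (57.5% of all tested). The median difference of these called exons was 13.2 points in KO and 16.8 in WT for MEP and CMP. It was 17.0 and 17.4 points for MEP and GMP, but 5.90 and 18.3 points for GMP and CMP.

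**Figure D4:**
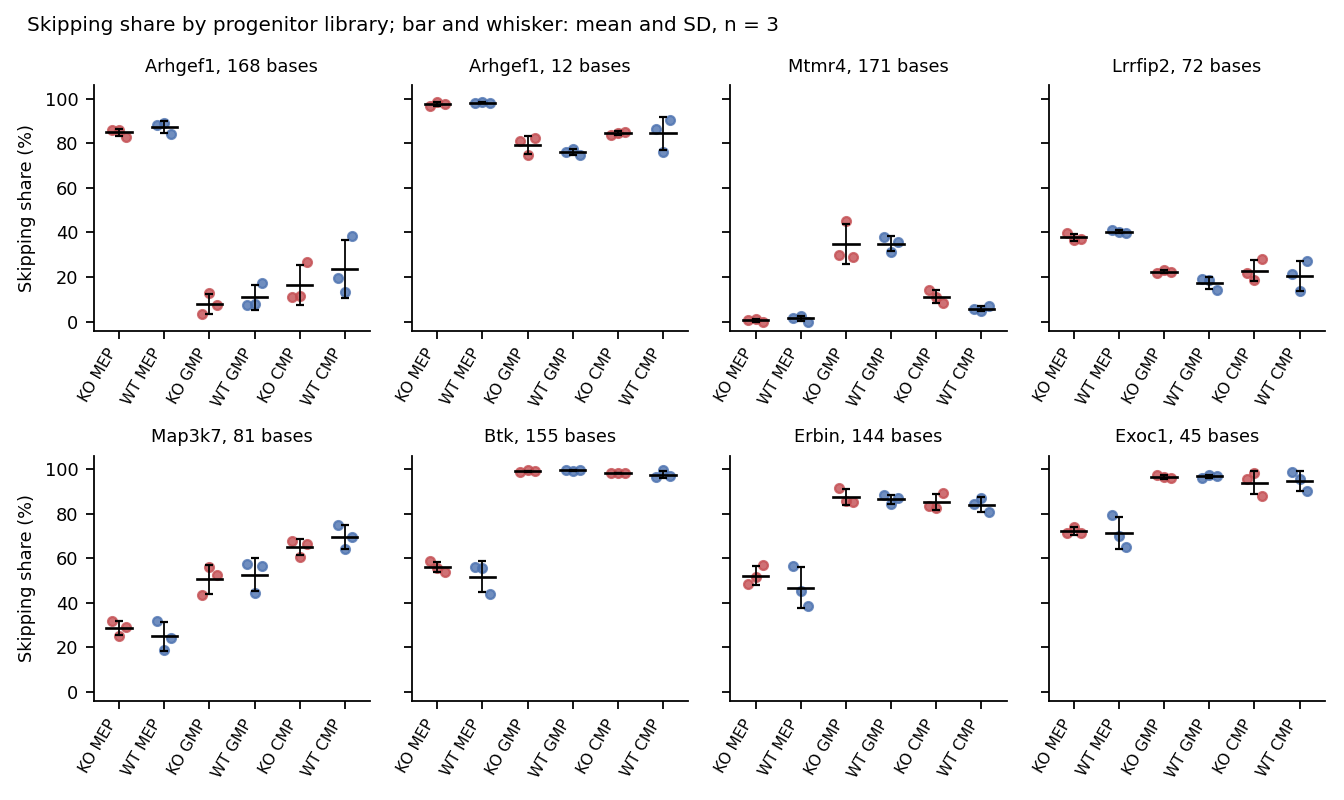
Skipping share (percent) of exons named among the sorted types, 1 point per library, with MEP, GMP and CMP from left to right and KO (red) left of WT (blue); bars and whiskers are means and SD (n = 3). The 168-base exon of Arhgef1 is high in MEP and low in GMP, while Map3k7, Btk and Erbin are lowest in MEP.

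The exon with the widest gap was in Arhgef1, a guanine nucleotide exchange factor that acts downstream of G-protein-coupled receptors. Its 168-base exon was skipped in 88.4%, 89.0% and 84.2% of transcripts in WT MEP, 7.6%, 7.7% and 17.2% in WT GMP, and 19.6%, 13.3% and 38.2% in WT CMP. MEP left the exon out in most transcripts, and GMP kept it (MEP minus GMP, 76.4 ± 3.5 points, SE, n = 3 each; edgeR adjusted p = 1.45e-05). KO mice gave 85.8%, 85.8% and 83.0% in MEP and 3.4%, 12.7% and 7.6% in GMP. The 12-base exon beside it was skipped in 98.2% ± 0.3 in WT MEP, 76.0% ± 1.4 in WT GMP and 84.4% ± 7.4 in WT CMP (SD, n = 3 each; MEP against GMP, edgeR adjusted p = 8.58e-06). Reads that skip both exons start at the 5′ splice site they share, so the pair is not independent, and the 168-base exon has 2 other listed introns inside its long intron. With the downstream junction alone, the adjusted p of the 12-base exon in MEP against CMP was 0.0923. WT MEF, at 91.7%, 86.4% and 84.5% for the 168-base exon, were as high as MEP.

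Map3k7 kept its alternative exon most often in MEP. Its 81-base exon was skipped in 31.9%, 18.7% and 24.3% of transcripts in WT MEP, 57.5%, 44.2% and 56.3% in WT GMP, and 74.9%, 64.1% and 69.8% in WT CMP. No library of MEP overlapped with either other type (MEP against CMP, edgeR adjusted p = 0.000106; MEP against GMP, edgeR adjusted p = 0.00655). GMP and CMP did not overlap either but were not called apart. WT MEF averaged 81.2%, above every progenitor library. Erbin, a scaffold protein with leucine-rich repeats, skipped its 144-base exon in 56.5%, 45.4% and 38.5% in WT MEP, 88.2%, 84.4% and 86.9% in WT GMP, and 84.2%, 87.2% and 80.9% in WT CMP (MEP against CMP, edgeR adjusted p = 0.000231). GMP and CMP overlapped for Erbin. Exoc1, a subunit of the exocyst that tethers vesicles, had its 45-base exon skipped in 71.4% ± 7.3 in WT MEP, 96.7% ± 0.6 in WT GMP and 94.6% ± 4.3 in WT CMP (SD, n = 3 each; MEP against GMP, edgeR adjusted p = 0.00655). In MEP against CMP the adjusted p of Exoc1 was 0.0123, and it was 0.0574 without WT MEP library 3 and 0.123 with the 2 groups compared alone.

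Of the 75 exons called between MEP and CMP, 12 were untranslated or noncoding and 10 partly coding, among them exons of Btk and Add1. Btk encodes a tyrosine kinase of B cell and myeloid receptor signalling, and its 155-base exon is untranslated. It was skipped in 55.9%, 55.6% and 43.9% of transcripts in WT MEP, 99.5%, 99.3% and 99.6% in WT GMP, and 96.3%, 99.5% and 96.9% in WT CMP (MEP against GMP, edgeR adjusted p = 1.07e-06). GMP and CMP left the exon out of nearly every transcript. The partly coding 37-base exon of Add1 was skipped in 77.0% ± 1.3 in WT MEP, 94.7% ± 0.3 in WT GMP and 94.5% ± 0.8 in WT CMP (SD, n = 3 each; MEP against CMP, edgeR adjusted p = 3.13e-06). With 99.5% in WT MEF, the Add1 exon was kept most often in MEP among these 4 cell types.

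Mtmr4, a phosphatase of endosomal phosphoinositides, differed between GMP and both other types. Its 171-base exon was skipped in 37.9%, 31.2% and 35.9% of transcripts in WT GMP, against 5.8%, 4.7% and 7.0% in WT CMP (edgeR adjusted p = 0.00868). In WT MEP it was skipped in 1.8%, 2.6% and 0.0% (MEP against GMP, edgeR adjusted p = 7.44e-05). GMP stood above both other types in every library, and its call against CMP was lost without WT CMP library 1 (adjusted p = 0.0512) or without WT GMP library 1 (adjusted p = 0.0629). KO GMP had 29.9%, 45.0% and 29.0%, and KO CMP 14.1%, 11.0% and 8.5%. The other exons called between WT GMP and WT CMP lay in Rps24, Abi1 (15 bases), Pitpnc1, Hnrnpa2b1 (136 bases) and H2-T22. Rps24, a ribosomal protein gene with many processed copies, skipped a 20-base exon in 99.7% ± 0.1 in WT GMP and 96.3% ± 0.7 in WT CMP (SD, n = 3 each; edgeR adjusted p = 1.92e-05). H2-T22, a class Ib histocompatibility gene with near-identical neighbours whose reads the counting could split, averaged 6.4% ± 1.1 in WT GMP and 28.1% ± 14.5 in WT CMP (SD, n = 3 each; edgeR adjusted p = 0.0307), and with the mouse as a block its adjusted p was 0.0578. Of the 6, Rps24 was the one whose call held under every alternative.

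Of the other exons lower in WT MEP, Ep400, an ATPase of a histone acetyltransferase complex, skipped its 108-base exon in 31.3% ± 8.1 in WT MEP, 63.0% ± 5.7 in WT GMP and 60.8% ± 3.8 in WT CMP (SD, n = 3 each; MEP against GMP, edgeR adjusted p = 0.00418). Picalm, an adaptor of clathrin-coated vesicles, skipped a 150-base exon in 42.9% ± 3.4 in WT MEP and 65.7% ± 6.4 in WT GMP (SD, n = 3 each; edgeR adjusted p = 0.00655). Among those higher in WT MEP, Lrrfip2 averaged 40.3% ± 0.6 in WT MEP and 17.4% ± 2.8 in WT GMP for a 72-base exon (SD, n = 3 each; edgeR adjusted p = 0.00519). Cnn2, a calponin that binds actin, skipped a 117-base exon in 10.9%, 18.4% and 38.4% in WT MEP, against 1.1%, 0.6% and 1.8% in WT CMP (edgeR adjusted p = 0.000164). The 3 MEP libraries of Cnn2 differed widely among themselves, and WT GMP averaged 5.3% ± 0.2. Genes of the cytoskeleton, adhesion and membrane traffic had 11 of 68 exons called between MEP and CMP (16.2%, in 9 of 34 genes, 6 higher and 5 lower in MEP). Blood cell genes had 1 of 27, cell death and kinase signalling genes 2 of 32, and RNA-binding and splicing factor genes 2 of 36, against 3.72% of all exons tested.

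Loss of Zrsr2 moved no cassette exon past the threshold in edgeR's test, in any of 6 comparisons. In progenitor counts summed per mouse, 0 of 2015 exons were called between 3 KO and 3 WT mice, the smallest adjusted p was 0.349, 88 exons had an unadjusted p under 0.05, and DESeq2 called 3. The median absolute difference between KO and WT mice was 0.772 points, and the 95th percentile was 5.08 points. In CMP 0 exons were called, with 130 at an unadjusted p under 0.05 and 5 calls by DESeq2. In GMP, MEP, MEF and control-hairpin Lin-Kit+ cells 0 were called by either tool, and the exons at an unadjusted p under 0.05 numbered 60 in GMP, 70 in MEP, 100 in MEF and 26 in the Lin-Kit+ cells. A p over the threshold does not show that the shares were equal. Groups did not overlap for 10.1% of exons in mouse sums, 9.13% in CMP, 8.44% in GMP, 9.43% in MEP, 9.78% in MEF, and 24.5% in the Lin-Kit+ cells, where 2 libraries stood against 2. The KO effect was also compared between cell types, as an interaction: edgeR called 0 exons for GMP against CMP (99 at an unadjusted p under 0.05), MEP against CMP (95), MEP against GMP (56) and MEF against progenitors (92); DESeq2 was not run on these interactions.

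The exons with the smallest p between KO and WT mice were read at the ends of the scale. Lmo2, a blood transcription cofactor, skipped a 216-base exon in 0.472% ± 0.034 in KO mice and 0.214% ± 0.026 in WT mice (SD, n = 3 each; edgeR adjusted p = 0.349). Ckap5, a microtubule polymerase, had 0.052% ± 0.045 in KO mice and 0.975% ± 0.359 in WT mice for a 180-base exon (SD, n = 3 each; edgeR adjusted p = 0.349). Neither passed the threshold. Lsm5, a subunit of the LSm ring that binds U6 RNA, had 9.1% ± 1.2 in KO mice and 5.4% ± 0.8 in WT mice (SD, n = 3 each; edgeR adjusted p = 0.719, DESeq2 adjusted p = 0.0307). DESeq2 also called the exons of Lmo2 and Ccna2 in this comparison. In CMP the same tool called exons of H2-T22, Mbnl1 (36 bases), Epb41l2, Lsm8 and Btrc. Of markers of other cells, 5 of 5 neutrophil and 6 of 6 GMP markers were higher in mean level in KO CMP than in WT CMP. Their sums overlapped between the genotypes. The neutrophil sum was 35.7 to 93.0 CPM in KO CMP and 22.3 to 40.1 CPM in WT CMP. The GMP sum was 3561.9 to 4533.4 CPM in KO CMP and 2535.5 to 4030.5 CPM in WT CMP. The part of these cells in the CMP differences was not tested. Golim4, with the widest gap between cell types, stood at 8.7%, 9.7% and 6.6% in KO MEF, against 10.2%, 10.3% and 8.9% in WT MEF, and was not called.

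Genes known to host a minor-class intron, the introns that ZRSR2 serves, held few readable cassette exons. In mouse sums 9 exons in 8 of the 72 listed genes were tested and 0 were called between KO and WT. Their median difference was -1.71 points, against 0.08 points over all exons tested, and 3 of the 9 had an unadjusted p under 0.05, against 88 of all 2015 exons (4.37%). The median was -0.28 points in CMP, -0.66 in GMP, -1.23 in MEP, -0.65 in MEF and -0.02 in control-hairpin Lin-Kit+ cells, with 1, 1, 1, 0 and 0 exons at an unadjusted p under 0.05. The progenitor types are parts of the mouse sums, so their medians are not independent of the first. The 3 exons in mouse sums were, as means of 3 mice each, Dram2, a lysosomal membrane protein, at 5.5% ± 1.4 in KO mice and 9.1% ± 1.1 in WT mice, Prmt1, an arginine methyltransferase, at 89.3% in KO mice and 92.0% in WT mice, and Mapk14, the p38 alpha kinase, at 98.6% in KO mice and 97.7% in WT mice. None of these passed the adjusted threshold, and 2 of the 3 were lower in KO mice. Between cell types, Pcyt2, an enzyme of phosphatidylethanolamine synthesis, skipped a 54-base exon in 67.4% ± 2.9 in WT MEF and 50.5% ± 1.7 in WT mice (SD, n = 3 each; edgeR adjusted p = 0.000839). Ap1g1, an adaptor of clathrin at the Golgi, skipped a 9-base microexon in 95.4% ± 1.4 in WT MEF and 98.7% ± 0.1 in WT mice (SD, n = 3 each; edgeR adjusted p = 0.00678; with the downstream junction alone, 0.111). A Mapk14 exon was called higher in WT MEP than in WT CMP, and with the upstream junction only its log2 odds ratio there changed sign. Which introns of these genes are U12-type was not read here, since intron sequence was not used.

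Hairpins against Zrsr1 moved no exon past edgeR's threshold in Lin-Kit+ cells. Of 1812 exons, 0 were called between 4 hairpin and 2 control libraries in WT cells (44 at an unadjusted p under 0.05, 0 by DESeq2) and 0 in KO cells (64 at an unadjusted p under 0.05, 6 by DESeq2). The hairpin effect in KO cells against that in WT cells gave 0 calls (39 at an unadjusted p under 0.05, 1 by DESeq2). With the experiment, which pairs these libraries, as a block, edgeR again called 0 in each, and the exons at an unadjusted p under 0.05 numbered 70 for hairpins in WT cells, 99 for hairpins in KO cells, 52 for their difference and 39 for KO against WT cells with the control hairpin. Groups did not overlap for 10.7% of exons in KO cells and 10.3% in WT cells. Eefsec, the elongation factor for selenocysteine, had a skipping share of 79.1% ± 2.8 with hairpins and 95.7% ± 1.2 with control in KO cells (SD, n = 4 and 2; edgeR adjusted p = 1). In WT cells Eefsec stood at 83.2% ± 6.3 with hairpins and 96.1% ± 2.7 with control (SD, n = 4 and 2; edgeR adjusted p = 1). Each hairpin group of 4 holds 2 libraries of sh1 and 2 of sh10, so its SD spans both hairpins and both experiments. Shares of Eefsec with hairpins and with control did not overlap in either genotype, and Eefsec had the smallest p in WT cells. Neither difference passed edgeR's threshold, and DESeq2 called the one in KO cells, beside exons of Chmp2b, Max, Cpsf6, Smc5 and Fcrl1; its 1 interaction call was Fcrl1. Lsm5 stood at 14.3% ± 5.3 with hairpins and 3.1% ± 2.0 with control in KO cells (SD, n = 4 and 2; edgeR adjusted p = 1). Macrophage markers were higher in mean level over both hairpins than with control for 4 of 4 genes, and neutrophil markers for 5 of 5, in both genotypes. The macrophage sum was 1084 to 2139 CPM with hairpins against 492 to 899 CPM with control in KO cells, and 794 to 2065 CPM against 392 to 950 CPM in WT cells. The neutrophil sum was 5477 to 9179 CPM with sh10 and 2805 to 3034 CPM with sh1, against 2275 to 3332 CPM with control, in KO cells, and 7055 to 11299 CPM with sh10 and 2114 to 2597 CPM with sh1, against 2283 to 2973 CPM with control, in WT cells. The part of these cells in the shares was not tested. The median absolute difference was 2.34 points in KO cells and 2.17 points in WT cells, and the Lin-Kit+ libraries held fewer reads than the others.

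**Figure D5:**
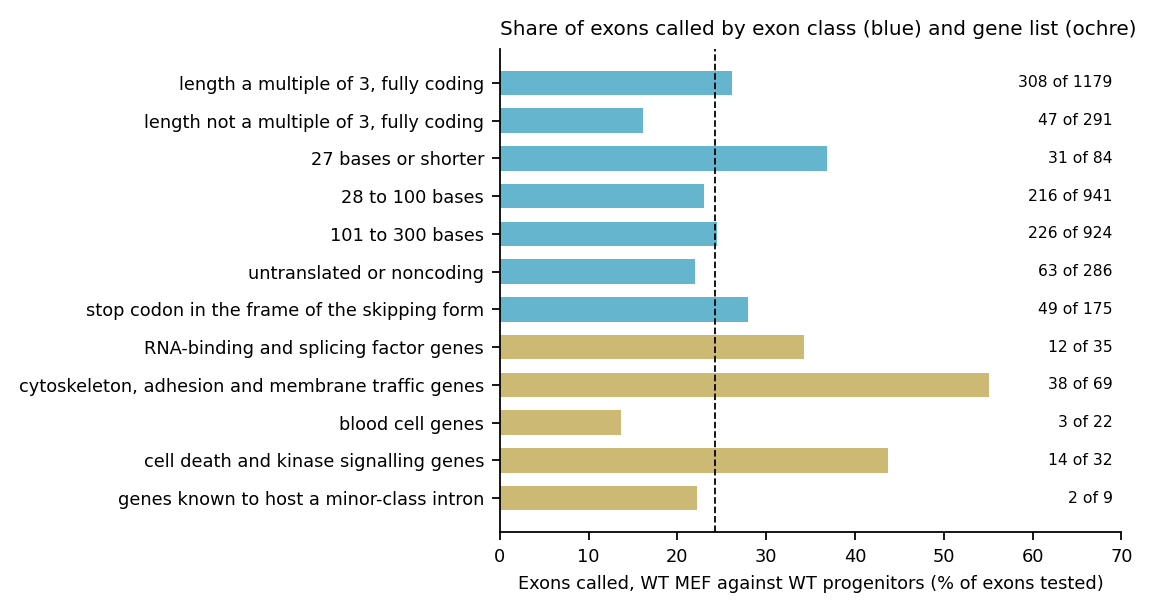
Percent of tested exons called in the comparison of WT MEF with WT progenitors (horizontal axis), by exon class (blue) and gene list (ochre), with the 24.3% over all tested exons as a dashed line and the count beside each bar. The bar of cytoskeleton, adhesion and membrane traffic genes reaches 55.1% and that of blood cell genes 13.6%.

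The called exons were also described by their place in the protein. In MEF against progenitors, 308 of 1179 fully coding exons with a length that is a multiple of 3 were called (26.1%), against 47 of 291 coding exons of other lengths (16.2%). Among exons of 27 bases or shorter 31 of 84 were called (36.9%), 10 higher and 21 lower in MEF. Exons skipped in under 5% of transcripts on average were called in 10.2% of cases and those skipped in over 80% in 32.6%. In MEP against CMP, all 17 fully coding exons that were skipped less in MEP had a length that is a multiple of 3, against 79.2% of coding exons tested in progenitors. Of the exons skipped less in MEP than in CMP, 14 of 26 with a sequence (53.8%) ended in G, while the exons of Erbin and Exoc1 end in A, against 78.5% of those tested. Exons skipped less in MEF than in progenitors ended in G in 80.6% of cases and exons skipped more in 74.6%. These shares are descriptions of the called exons and were not tested.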

How the data were processed

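Poly(A) RNA was sequenced from 36 mouse libraries, made with TruSeq kits (progenitors, MEF) or NEBNext Ultra kits (Lin-Kit+ cells), per the labels' protocols. The authors deposited whole-number counts per intron for each library. Coordinates are on mm10, as the submitters' processing notes name it. Which aligner and counter made the counts is not given in the sources used here. All 219945 introns matched GENCODE M21. In 25884 nested intron pairs the outer intron never exceeded the inner one, so a skipping read was taken to count at all 3 introns. Cassette exons were found by coordinates with Python 3.11.15. Skipping counts (long intron) and inclusion counts (the sum of both inner introns minus 2 times the long intron) were compared in edgeR 4.0.16 (R 4.3.3) by the quasi-likelihood test, with an intercept per library and a skipping coefficient per group, adjusted by Benjamini-Hochberg over all exons tested; the method was tested on simulated data. DESeq2 1.42.0, single junctions, other filters, groups compared alone, a replicate block and leaving out each library were alternatives.

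The members and gene lists were chosen with earlier results of these data known. Named exons were up to 8 per direction with the largest difference of non-overlapping groups among those called, up to 6 called per gene list by p, the 10 smallest p of each genotype or hairpin comparison, and any call where 10 or fewer were made; a few more described beside these were chosen after their values were seen. Not every exon that the rule chose is described. CMP, GMP and MEP of 1 mouse are paired by animal (correlation of deviations -0.043 to 0.104 over 18 pairs), and Lin-Kit+ libraries by experiment (0.192 to 0.282 over 30 pairs). KO and WT libraries of the same number are not paired (-0.0464 to 0.0626 over 15 pairs). For MEF and Lin-Kit+ cells the p-values reflect only how these libraries vary, which may be technical.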

Additional observations from a re-analysis of the deposited data

How the results depend on the processing

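The 473 calls of MEF minus progenitors kept within 1.5 times under every alternative, from 376 to 482 when 1 library was left out. Counts moved more among the sorted types. For GMP minus CMP (6 calls) DESeq2 gave 18, the groups compared alone 2, exons with no other listed intron inside 3 (an alternative chosen after seeing the data), and leaving out 1 library 2 to 11 (2 without WT CMP library 1, 3 without WT GMP library 1 or 2, 11 without WT MEP library 3). For MEP minus CMP (75) the values were 153 with DESeq2, 23 with the groups alone, 29 with the upstream junction only, 49 with no other intron inside, and 46 to 83 leaving out 1 library (47 without WT CMP library 2, 46 without WT MEP library 3). For MEP minus GMP (49) they were 97 with DESeq2, 24 with the upstream junction only, and 28 to 57 leaving out 1 library (29 without WT GMP library 2, 28 and 29 without WT MEP library 2 and 3). Comparisons with 0 calls gave 3 (KO minus WT, mouse sums), 5 (CMP), 6 (hairpins in KO) and 1 (hairpin interaction) with DESeq2, 0 to 1 in mouse sums and in CMP leaving out 1 library, and 1 in MEP with the groups alone (1500004A13Rik). The left-out libraries were KO GMP library 1 for CMP, where Lsm8 was called, and KO mouse 3 for mouse sums, where Rps25 was called. Leaving out 1 library gave 0 in the other comparisons with 0 calls. With the mouse as a replicate block, GMP minus CMP gave 8 calls, MEP minus CMP 68 and MEP minus GMP 45; it ended the calls of H2-T22 (given above), Synrg (adjusted p = 0.0516) and Rtel1 (adjusted p = 0.0502) and of no other named exon. No paired analysis was possible for MEF minus progenitors because the MEF and mouse numbers share none. Of 82 calls of named exons, 51 held under every alternative that gave a value. With the upstream junction only, 2 log2 odds ratios changed sign: Mapk14 (MEP minus CMP, -2.99) and Ogdh (MEP minus GMP, -0.68); the cause was not tested. An exon read from 40 reads in a library gives a coarse share, so small differences could not be called there.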

Other observations

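A further 592 exons were tested in MEF and not in progenitors, where they missed the minimum counts. Tropomyosin, which lines actin filaments, showed a mutually used pair in Tpm1: a 126-base exon was skipped in 4.9% ± 0.7 of transcripts in KO MEF and 5.2% ± 0.5 in WT MEF, and its partner in 93.3% ± 0.6 in KO MEF and 93.4% ± 0.6 in WT MEF (SD, n = 3 each). The shares of the pair add to nearly the whole. Fn1 encodes fibronectin, and its extra domain exons are a textbook case of regulated splicing. Its 270-base exon was skipped in 65.4% ± 8.0 in KO MEF and 65.5% ± 3.7 in WT MEF, and its 273-base exon in 66.2% ± 7.4 in KO MEF and 68.9% ± 1.4 in WT MEF (SD, n = 3 each). A 99-base exon of Ank2, an ankyrin that anchors membrane proteins, was skipped in 50.0% ± 1.1 in KO MEF and 38.6% ± 4.3 in WT MEF (SD, n = 3 each), with as few as 63 reads at its inner introns in 1 library. For Fas, a death receptor, the 54-base exon, whose skipping gives a soluble receptor, had a share of 39.2% ± 4.2 in KO MEF and 41.8% ± 3.3 in WT MEF (SD, n = 3 each). None of these exons was called between KO and WT in edgeR's test.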
